A study of Arabidopsis thaliana with 18 samples.

Results

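The 31 genes described here encode proteins of the cytosolic ribosome of Arabidopsis thaliana, 17 of the large subunit and 14 of the small subunit. They were chosen by their gene identifiers from the 27628 genes of the authors' deposited table, and no measured value entered the rule. The choice was made with earlier results of these data known. Ribosome footprints and RNA were sequenced from 9-day-old seedlings of Col-0 (wild type) and of the mutants ceres-1 and ceres-2, both in the Col-0 background, collected 5 h into the light period (Zeitgeber time 5) under control conditions. There were 18 libraries, 9 of footprints and 9 of RNA, with 3 per genotype and kind. The labels do not describe the lesion in either allele, nor whether replicates came from separate cultures, so the p-values measure only the spread between these libraries, which may be technical. Whole seedlings mix cell types, and fewer cells of a type cannot be told apart from less RNA per cell. In the authors' deposited table the RNA of the mutated gene, CERES (AT4G23840), fell by 4.43 (ceres-1) and fell by 2.92 (ceres-2) on the log2 scale, with adjusted p-values of 5.62e-08 and 6.19e-05.

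The cytosolic ribosome joins a small subunit, which decodes the mRNA, and a large subunit, which forms peptide bonds. In plants each ribosomal protein is encoded by several near-identical genes, called paralogs, spread over the nuclear chromosomes. CERES binds eIF4E, the initiation factor that holds the mRNA cap, and ribosomal protein mRNAs are a class whose translation is known to follow the activity of the TOR kinase, which also leads to phosphorylation of ribosomal protein S6.

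Each gene has 3 quantities per allele, all over Col-0. The RNA and footprint log2 fold changes are the authors', and the footprint minus the RNA value, called the efficiency difference here, was computed from them. The efficiency adjusted p is the authors', and the efficiency log2 value they list beside it is not this difference. Whether that adjusted p tests this difference is unknown. The table holds no values per library, so depth is unknown and no SD, standard error or interval can be given. A gene is called when its adjusted p in the authors' deposited table is below 0.05. Both alleles were compared with the same Col-0 libraries, so their values are not independent of each other and are given side by side.

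The coding sequences that separate the S18 genes come first, because this family holds the largest RNA value among the 31 genes and its genes differ among themselves. S18 sits in the head of the small subunit. The first 60 coding bases of RPS18A (AT1G22780), AT1G34030 and RPS18C (AT4G09800) are given from RefSeq (TAIR10.1), 5′ to 3′, with the 12 positions at which they are not all identical in capitals.
RPS18A: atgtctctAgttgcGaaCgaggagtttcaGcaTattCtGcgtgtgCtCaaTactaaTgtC
AT1G34030: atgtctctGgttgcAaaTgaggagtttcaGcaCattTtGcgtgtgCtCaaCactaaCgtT
RPS18C: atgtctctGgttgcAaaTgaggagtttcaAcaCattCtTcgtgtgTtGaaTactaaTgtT
Across the whole coding sequence of 459 nt, AT1G34030 and RPS18C were 91.1% identical, RPS18A and RPS18C 87.6%, and RPS18A and AT1G34030 87.1%. Of all 28-base windows, about the length of a footprint, 2.08% of those of RPS18A, 3.47% of those of AT1G34030 and 5.56% of those of RPS18C also occur exactly in another nuclear coding sequence. Among the 31 genes this share ran from 0% in 6 genes, RPS15A and RPS13A among them, to 18.6% in RPL16A. It was also above 10% in AT1G70600 (15.5%), RPL10A (13.4%) and AT2G31610 (10.6%). Values of genes with shared windows are uncertain to an unknown degree, because the authors' treatment of reads with several matches was not given in the sources used here.

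Promoters are shown for the genes at both ends of the RNA range, RPL24B (AT3G53020), RPS15A (AT1G07770) and RPS18C. Each is the 250 bases before the RefSeq gene start in TAIR10.1, read in the direction of the gene. The authors' deposited table gives no coordinates and names no genome build, so these positions are those of the reference and not of the authors' files. RPL24B lies on the minus strand, with the stretch shown at chr3:19662026-19662275. RPS15A is also on the minus strand, at chr1:2409792-2410041. RPS18C is on the plus strand, at chr4:6173462-6173711. Capitals mark the site II letters TGGGCC and TGGGCT, a motif known from promoters of growth genes.
RPL24B: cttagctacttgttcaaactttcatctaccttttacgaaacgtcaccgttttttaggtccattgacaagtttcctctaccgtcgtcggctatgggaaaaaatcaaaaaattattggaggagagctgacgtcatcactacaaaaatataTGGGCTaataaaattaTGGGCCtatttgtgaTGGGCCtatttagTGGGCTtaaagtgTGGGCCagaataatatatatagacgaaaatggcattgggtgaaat
RPS15A: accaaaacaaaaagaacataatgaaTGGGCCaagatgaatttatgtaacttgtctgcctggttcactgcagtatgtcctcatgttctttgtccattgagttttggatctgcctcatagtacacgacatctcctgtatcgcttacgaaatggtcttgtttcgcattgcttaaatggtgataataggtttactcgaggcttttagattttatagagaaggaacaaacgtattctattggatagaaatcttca
RPS18C: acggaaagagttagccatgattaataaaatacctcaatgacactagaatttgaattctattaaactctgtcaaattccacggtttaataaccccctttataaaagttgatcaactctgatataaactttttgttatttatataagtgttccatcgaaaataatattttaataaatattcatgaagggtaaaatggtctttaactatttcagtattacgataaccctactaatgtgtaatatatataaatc
RPL24B had 3 copies of TGGGCC and 2 of TGGGCT, RPS15A had 1 copy of TGGGCC, and RPS18C had no match on either strand. Site II letters on either strand were found in the promoters of 20 of the 31 genes (64.5%), against 19.2% of the 27443 nuclear protein-coding promoters of the same length. The telo box AAACCCTA, another motif known from ribosomal protein genes, was found on either strand in 6 of the 31 (19.4%), against 4.49% of all these promoters. Both motifs were found in 4 of the 31 promoters (12.9%), against 1.36% of all, and overlapping matches were kept. In 180 other nuclear genes annotated as cytosolic ribosomal proteins, described below, the shares were higher. They were 70.6% for site II letters, 22.2% for the telo box and 18.3% for both, so these motifs are not particular to the 31. In RNA the 20 genes with site II letters had a median log2 fold change of 0.051 (ceres-1) and -0.012 (ceres-2) from the authors' deposited table, and the 11 without had medians of 0.099 and 0.068. A match is a description of letters in this window and says nothing of binding.

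None of the 31 genes was called in RNA, footprints or efficiency in either allele, in the authors' deposited table. Over all genes of that table with an adjusted p, the share called in RNA was 0.0249% (ceres-1) and 0.137% (ceres-2). In footprints it was 0.642% and 1.88%, and in efficiency 0.107% and 0.041%. With shares this low, a count of 0 among 31 genes is near the background and is not a result about these genes. An adjusted p was listed for all 31 in RNA, for 30 and 31 in footprints, and for 30 in efficiency in each allele; the gene without one was RPSAB (AT3G04770). The comparison tool was DESeq2 per the submitters' processing notes, and unadjusted p-values are not listed in the table. At a looser threshold of 0.1 a single gene passed, RPS18C in the efficiency of ceres-1, where 0.33% of all genes with an adjusted p passed. The shares of all genes with an adjusted p at 0.1 were 0.0331% and 0.158% for RNA, 0.913% and 2.39% for footprints, and 0.0574% for efficiency in ceres-2.

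Fold changes of these genes were small. The largest fold change in RNA, computed from the authors' deposited table, was 1.49-fold (ceres-1) and 1.39-fold (ceres-2), and in footprints 1.18-fold and 1.31-fold. No gene reached 1.5-fold in RNA or footprints, where 1.34% and 1.51% of the 12049 genes whose efficiency had an adjusted p in each allele (the tested genes below) did so in RNA, and 2.07% and 2.74% in footprints. In the efficiency difference 1 gene passed 1.5-fold in ceres-1 (background 5.76%) and 2 did so in ceres-2 (background 4.79%). The median size of the log2 fold change, regardless of sign, was 0.096 and 0.076 in RNA, against 0.12 in both alleles over the 12049 genes. In footprints it was 0.13 and 0.086, against 0.13 in both, and for the efficiency difference 0.14 and 0.088, against 0.19 and 0.18. By the mean of both alleles, RPS18C, RPS15A and AT1G34030 had the highest RNA values of the 31 and RPL24B the lowest. RPS18C, RPS15A and AT3G09200 had the lowest efficiency differences and RPL24B the highest.

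**Figure D1:**
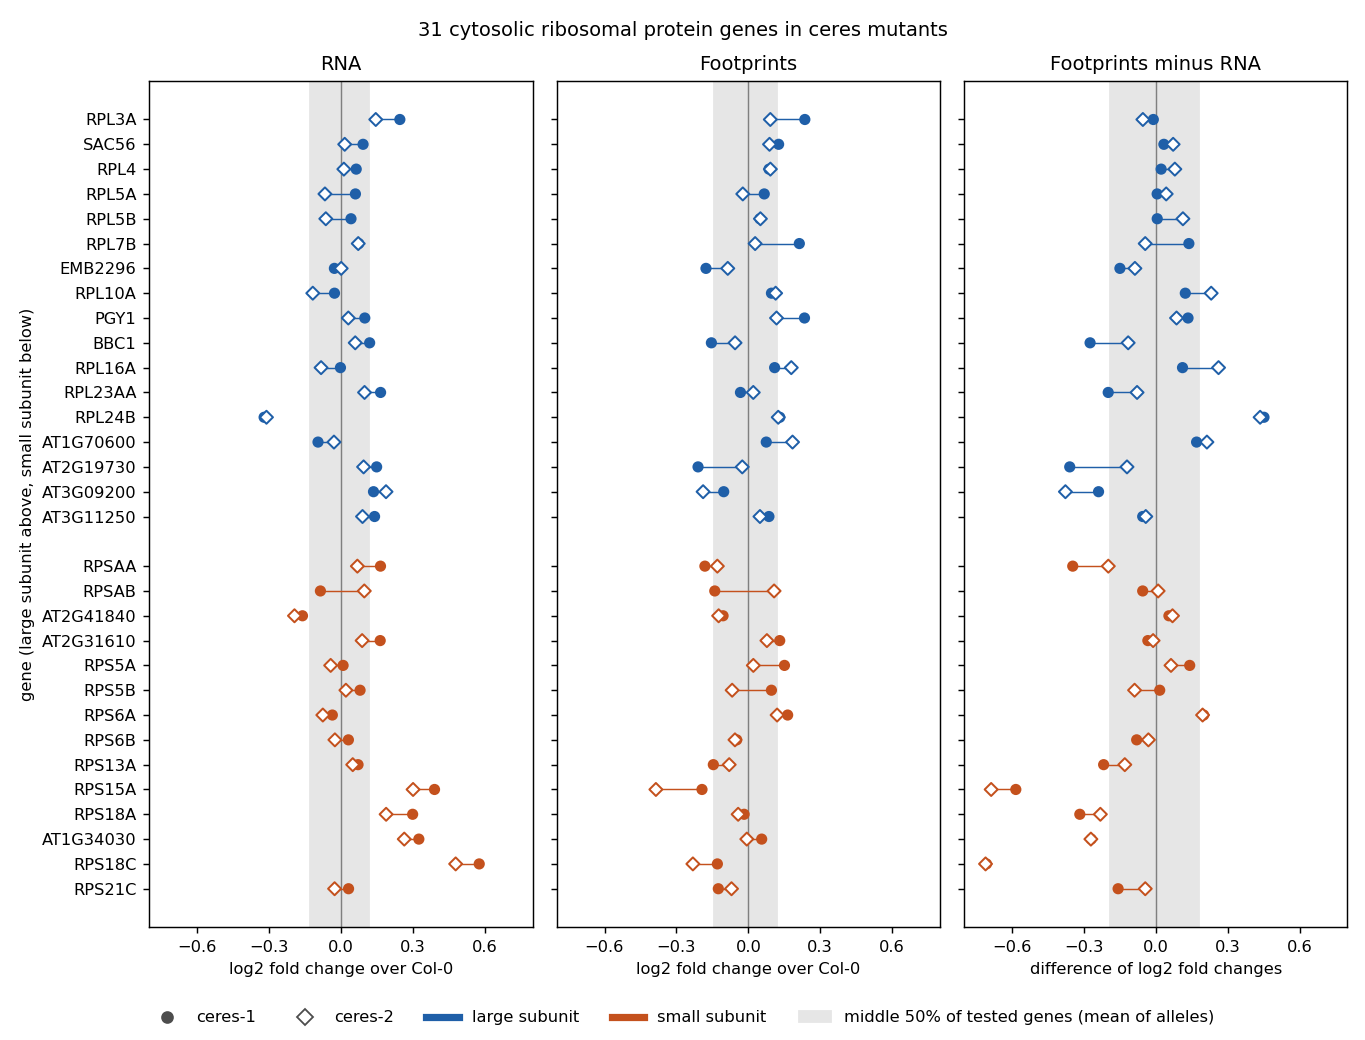
Log2 fold change over Col-0 of each of the 31 genes in RNA (left), footprints (middle) and footprints minus RNA (right), from the authors' deposited table. Filled circles are ceres-1, open diamonds ceres-2, blue the large and orange the small subunit, and the grey band spans the middle 50% of the 12049 tested genes by the mean of both alleles. RPS18C lies furthest right in RNA (0.58 and 0.48) and furthest left in the difference (-0.71 in both), and RPL24B lies furthest left in RNA.

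In the small subunit, the S18 genes and RPS15A had the highest RNA values in both alleles, and RPS18C and RPS15A the lowest efficiency differences. RPS18C had an RNA log2 fold change of 0.58 (ceres-1) and 0.48 (ceres-2) in the authors' deposited table, with adjusted p-values of 0.309 and 0.978. Of the 12049 tested genes, 99.4% and 98.5% had lower RNA values. Its footprint values in the authors' deposited table were -0.13 and -0.23 (adjusted p = 0.885 and 0.418). The efficiency difference was -0.71 in both alleles, with 1.2% and 1.09% of tested genes lower, and the efficiency adjusted p in the authors' deposited table was 0.0586 and 0.259. The efficiency log2 value that the authors list beside that adjusted p was -0.14 and -0.24, close to the footprint values and not to -0.71. The difference contains the RNA value, so it is not a separate measurement from a high RNA value with a footprint value near 0.

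AT1G34030, an S13/S18 family gene, had RNA values of 0.32 and 0.26 and footprint values of 0.056 and -0.0063 in the authors' deposited table. RPS18A, known from its pointed first leaf mutant, had RNA values of 0.30 and 0.19 and footprint values of -0.018 and -0.042 in the same table. Their efficiency differences were -0.27 in both alleles for AT1G34030 and -0.32 and -0.23 for RPS18A. All 3 S18 genes thus lay above 0 in RNA and below 0 in the difference in both alleles, and RPS18C was the most distant from 0.

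RPS15A encodes S15a, which binds the small ribosomal RNA. Its RNA log2 fold change was 0.39 (ceres-1) and 0.30 (ceres-2) and its footprint value -0.19 and -0.39 in the authors' deposited table. The footprint adjusted p in ceres-2 was 0.126 in the authors' deposited table, the lowest of the 31 genes in that comparison. The difference was -0.58 and -0.69, with an efficiency adjusted p of 0.549 and 0.781 in the authors' deposited table. RPS15A was the only one of the 31 whose footprint value in ceres-2 was below -0.3.

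RPS6A and RPS6B encode S6, the protein phosphorylated by S6 kinase downstream of TOR. RPS6A had RNA values of -0.036 and -0.076 and footprint values of 0.16 and 0.12 in the authors' deposited table, and a difference of 0.20 in both alleles. RPS6B had RNA values of 0.031 and -0.025 and footprint values of -0.048 and -0.056 there, and differences of -0.079 and -0.030. The footprint values of RPS6A were thus above 0 and those of RPS6B below 0 in both alleles, and the lowest of their footprint adjusted p-values was 0.798 in the authors' deposited table.

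RPSAA (AT1G72370) and RPSAB encode the SA protein of the small subunit, related to the laminin receptor of animals. RPSAA had RNA values of 0.16 and 0.068 and footprint values of -0.18 and -0.13 in the authors' deposited table, and differences of -0.35 and -0.20. RPSAB had RNA values of -0.086 and 0.097 and footprint values of -0.14 and 0.11 there, and differences of -0.054 and 0.010. Its RNA and footprint values had opposite signs in the alleles. RPS5A and RPS5B encode S5, which lies near the mRNA exit channel. RPS5A had RNA values of 0.0089 and -0.043 and footprint values of 0.15 and 0.021 in the authors' deposited table, and differences of 0.14 and 0.064. RPS5B had RNA values of 0.080 and 0.021 and footprint values of 0.096 and -0.068 there, and differences of 0.017 and -0.088.

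The other small subunit genes had 1 member each. AT2G41840, of the family of bacterial S5, had the lowest RNA value of the subunit, -0.16 and -0.19, with footprint values of -0.11 and -0.12 in the authors' deposited table. AT2G31610, of the S3 family at the mRNA entry channel, had RNA values of 0.16 and 0.088 and footprint values of 0.13 and 0.077 in that table. RPS13A and RPS21C had footprint values below 0 in both alleles, -0.15 and -0.080 for RPS13A and -0.13 and -0.070 for RPS21C, in the authors' deposited table. Their RNA values there were 0.071 and 0.049, and 0.032 and -0.027.

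In the large subunit, RPL24B stood apart in the direction opposite to the S18 genes. It encodes L24, also named SHORT VALVE1, which is known for supporting reinitiation of translation after upstream open reading frames in Arabidopsis. Its RNA log2 fold change was -0.32 (ceres-1) and -0.31 (ceres-2) and its footprint value 0.13 and 0.12 in the authors' deposited table. The difference was 0.45 and 0.44, higher than in 93.5% and 94.2% of the tested genes. Its efficiency adjusted p in the authors' deposited table was 0.514 and 0.86.

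Next come proteins around the peptidyl transferase centre and the 5S RNA, grouped by textbook knowledge. RPL3A, which encodes L3 near that centre, had RNA values of 0.25, the largest of the subunit in ceres-1, and 0.15, and footprint values of 0.24 and 0.092 in the authors' deposited table. Its RNA and footprint values were alike, and its difference was -0.0099 and -0.053. EMB2296 encodes L8 (of the bacterial L2 family), also near that centre and required for embryo development. Its footprint value in the authors' deposited table was -0.18 and -0.086, with RNA values of -0.027 and 0.00095. RPL5A and RPL5B encode L5, which binds 5S ribosomal RNA, and had footprint values in that table of 0.066 and -0.023, and 0.048 and 0.050. Their differences were 0.0060 and 0.044 for RPL5A and 0.0064 and 0.11 for RPL5B. RPL16A encodes a partner of L5 at the 5S RNA and had footprint values of 0.11 and 0.18 against RNA values of -0.0021 and -0.083 in the authors' deposited table.

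Among genes known from growth and leaf mutants, PGY1, which encodes L10a and affects leaf polarity, had footprint values of 0.23 and 0.12 in the authors' deposited table. Its RNA values there were 0.099 and 0.031. RPL10A, whose dominant allele sac52 suppresses a dwarf polyamine mutant, had RNA values of -0.027 and -0.12 and footprint values of 0.096 and 0.11 in the same table, with differences of 0.12 and 0.23. SAC56 and RPL4 encode L4, which lines the exit tunnel, and had footprint values of 0.13 and 0.088, and of 0.086 and 0.092, in the authors' deposited table. Their differences were 0.034 and 0.073, and 0.023 and 0.080.

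Several of the remaining large subunit genes had RNA values above 0 and differences below 0 in both alleles. BBC1, which encodes L13, had RNA values of 0.12 and 0.059 and footprint values of -0.15 and -0.055 in the authors' deposited table, and differences of -0.27 and -0.11. RPL23AA, whose protein lies at the exit of the tunnel, had RNA values of 0.17 and 0.098 and footprint values of -0.033 and 0.021 in that table, and differences of -0.20 and -0.078. AT2G19730, of the L28e family, had RNA values of 0.15 and 0.094 and footprint values of -0.21 and -0.025 in the authors' deposited table, and differences of -0.36 and -0.12. AT3G09200, of the L10 family, had differences of -0.24 and -0.38 (efficiency adjusted p = 0.683 and 0.712 in the authors' deposited table). AT3G11250, of the same family, had differences of -0.054 and -0.041.

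RPL7B and AT1G70600 had differences above 0 in ceres-1. RPL7B had RNA values of 0.074 and 0.072 and footprint values of 0.21 and 0.028 in the authors' deposited table, and differences of 0.14 and -0.044. AT1G70600, of the L18e/L15 superfamily, had RNA values of -0.096 and -0.029 and footprint values of 0.075 and 0.18 there, and differences of 0.17 and 0.21.

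The medians of the subunits were closer in RNA than in footprints. In RNA the median log2 fold change of the 17 large subunit genes in the authors' deposited table was 0.074 (ceres-1) and 0.016 (ceres-2). That of the 14 small subunit genes was 0.075 and 0.059. In footprints the large subunit median was 0.086 and 0.050 and the small subunit median -0.077 and -0.062 from the same table. Footprint values were above 0 for 12 of 17 large subunit genes in each allele and for 5 and 4 of the 14 small subunit genes. Across the tested genes of the table, 50.3% and 48.1% were above 0 in footprints, with medians of 0.0010 and -0.0096.

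The large minus small subunit median was -0.0011 and -0.043 in RNA, 0.16 and 0.11 in footprints, and 0.12 and 0.11 in the efficiency difference. The ranges of the subunits overlapped in every quantity and allele. In footprints the large subunit ran from -0.21 to 0.24 in ceres-1 and from -0.19 to 0.18 in ceres-2, and the small subunit from -0.19 to 0.16 and from -0.39 to 0.12. Genes of a subunit are not replicates, and no test was made. Without members that have a paralog among the 31, the footprint contrast was 0.22 (ceres-1) and 0.17 (ceres-2), and the efficiency contrast 0.27 and -0.00014. With means in place of medians, the contrast in ceres-1 was -0.079 in RNA and 0.084 in footprints, which are of similar size. In ceres-2 the contrast of means was -0.077 in RNA, 0.11 in footprints and 0.18 in efficiency. Without the S18 genes and RPS15A, an exclusion chosen after seeing the data, the large minus small subunit difference in efficiency was 0.050 and 0.064. That in footprints stayed at 0.16 and 0.11 because these genes lie evenly on both sides of the small subunit median. The unchanged median therefore says nothing of their weight. The small subunit footprint mean was -0.035 (ceres-1) and -0.062 (ceres-2) with them, and -0.020 in both alleles without them.

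In the other cytosolic ribosomal protein genes the footprint contrast between subunits was near 0. The notes in RefSeq place 180 other nuclear genes in the cytosolic ribosome as structural proteins, 106 in the large subunit and 71 in the small. The notes are an imperfect guide. The same search finds 22 of the 31 genes, and the small subunit set includes NFD3 and emb1129, which are known as genes of organelle-type ribosomal proteins. None of these was called in any of the 6 comparisons of the authors' deposited table, at the background shares given above. Their large minus small subunit median was -0.018 (ceres-1) and 0.030 (ceres-2) in footprints, and 0.051 and 0.10 in the efficiency difference. In RNA it was -0.079 and -0.096, with small subunit medians of 0.093 and 0.046 and large subunit medians of 0.014 and -0.050. Their small subunit footprint values were above 0 for 37 and 40 of 71 genes.

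**Figure D2:**
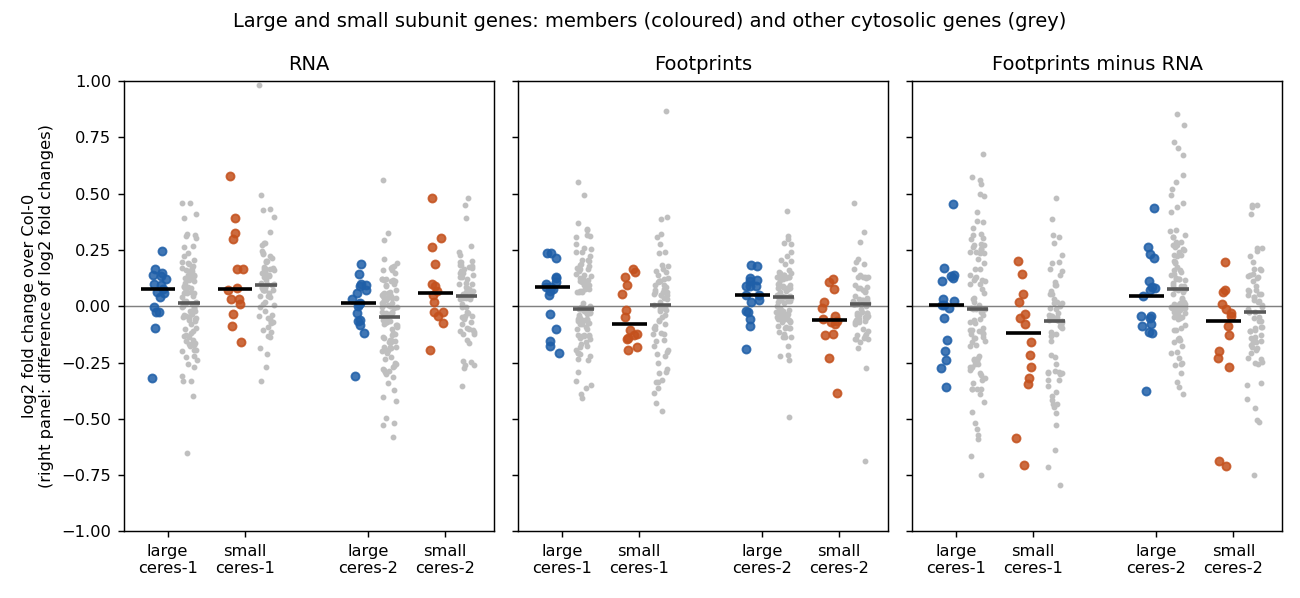
Log2 fold changes over Col-0 in RNA and footprints, and their difference, for large (blue) and small (orange) subunit genes among the 31, and for the other cytosolic ribosomal protein genes (grey), with 1 point per gene and a bar at the median. In footprints the bar of the 14 small subunit genes lies at -0.077 and -0.062, below that of the 17 large subunit genes, while the grey bars lie between -0.011 and 0.040; between 3 and 6 grey genes per panel and allele lie outside the axis.

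Paralogs were compared in the 7 protein families with several genes among the 31, which hold 15 genes. In RNA the spread within a family, the highest minus the lowest log2 fold change, had a median of 0.067 (ceres-1) and 0.050 (ceres-2) from the authors' deposited table. In footprints that median was 0.054 and 0.18, and in the efficiency difference 0.18 and 0.21. Paralogs of the S18 family were furthest apart in RNA, by 0.28 and 0.29, and in the difference, by 0.44 and 0.48. It is the only family with 3 genes here, and a highest minus lowest value tends to be wider over 3 genes than over 2. Its spread comes from RPS18C, as RPS18A and AT1G34030 had RNA values of 0.30 and 0.32 in ceres-1 and 0.19 and 0.26 in ceres-2. The RPSA pair was apart in RNA by 0.25 in ceres-1 and 0.029 in ceres-2.

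Paralogs of L4 and of L5 lay close together in RNA. In the authors' deposited table SAC56 and RPL4 had RNA values of 0.092 and 0.064 in ceres-1, and of 0.016 and 0.012 in the other allele. RPL5A and RPL5B had RNA values of 0.060 and 0.042, and of -0.067 and -0.063, in the same order. Their coding sequences were 87.0% identical for L4 and 92.7% for L5. The L5 genes each shared 8.87% of their 28-base windows with another coding sequence, more than any S18 gene, and their counts could be split between them.

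In the L10 family, AT3G09200 and AT3G11250 were 88.3% identical in coding sequence and shared 0.321% and 0.317% of windows with any other coding sequence. Their RNA values in the authors' deposited table were 0.14 and 0.14 in ceres-1 and 0.19 and 0.090 in ceres-2. Their footprint values there were -0.10 and 0.086 in ceres-1 and -0.19 and 0.049 in ceres-2. The footprint values of the paralogs thus had opposite signs in both alleles, by 0.19 and 0.24, with adjusted p-values of 0.902 and 0.949, and 0.479 and 0.97. RPS6A and RPS6B (84.7% identical) were apart in footprints by 0.21 and 0.18. No test between paralogs can be made from the table.

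**Figure D3:**
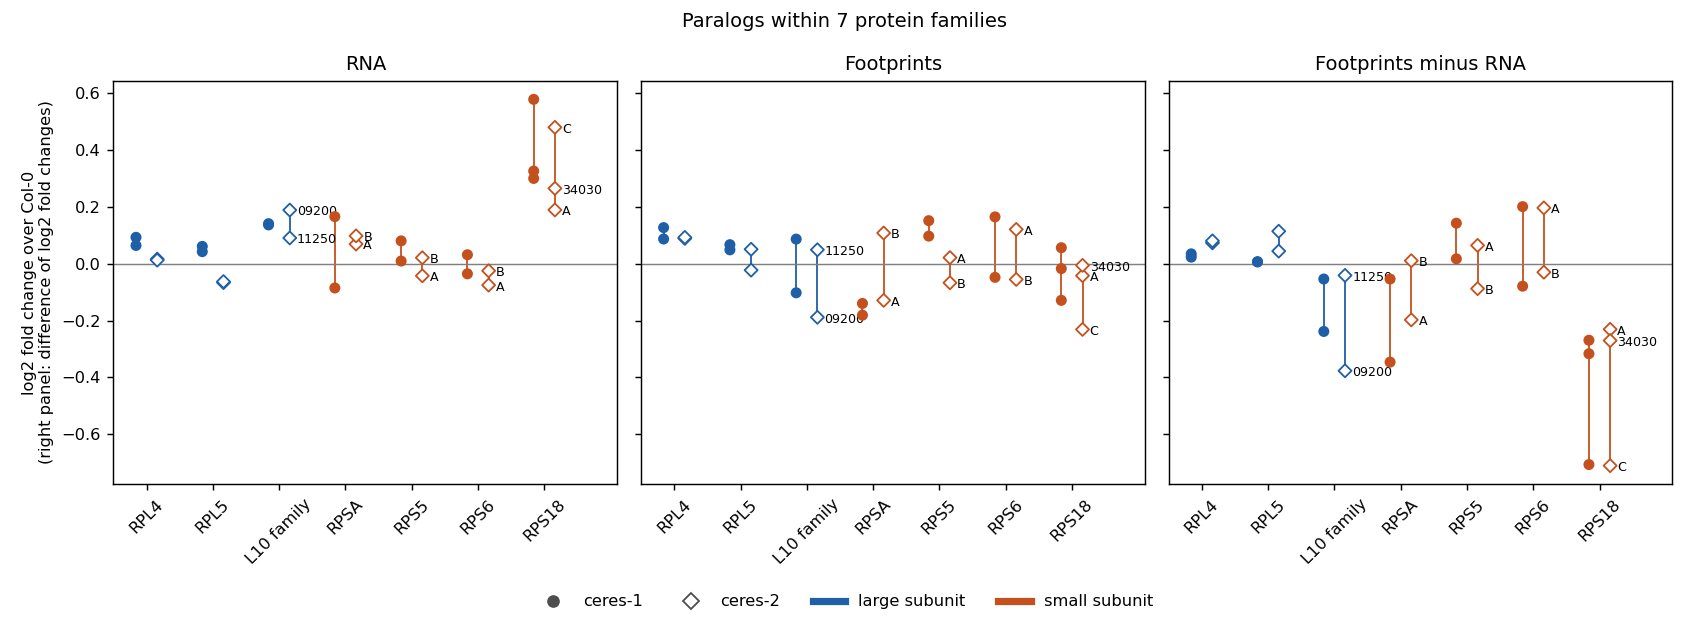
Log2 fold changes over Col-0 in RNA and footprints, and their difference, in the 7 families with several genes among the 31. Filled circles are ceres-1 and open diamonds ceres-2, lines join the paralogs of a family, and letters or the last digits of the locus name the ceres-2 points of 5 families. The S18 family, the only one with 3 genes, spans 0.28 and 0.29 in RNA and lies below 0 in the difference, and the L4 and L5 pairs lie close together.

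Paralogs outside the 31 were set beside some of the genes. RPL24A (AT2G36620) is 84.7% identical to RPL24B and had RNA values of -0.19 and -0.29 and footprint values of 0.062 and 0.13 in the authors' deposited table. Its difference was 0.26 and 0.42, so both L24 genes had RNA values below 0 and footprint values above 0 in both alleles. The relatives of RPS15A given here did not share the signs of its values in both alleles. AT5G59850, 85.2% identical to it, had RNA values of 0.072 and -0.12 in the authors' deposited table. Its footprint values there were 0.12 and 0.14, and its differences 0.053 and 0.26. RPS15AD, 84.0% identical, had RNA values of 0.17 and 0.079 and footprint values of 0.31 and -0.030 in that table. Its differences were 0.14 and -0.11, so in ceres-2 its signs were those of RPS15A, with values closer to 0.

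RPS13A and AT3G60770, which are 84.4% identical, were apart in RNA. AT3G60770 had RNA values of 0.43 and 0.48 in the authors' deposited table, and its differences were -0.53 and -0.45. RPS13A had differences of -0.22 and -0.13. RPL3B, 78.9% identical to RPL3A, had RNA values of -0.18 and -0.15 and footprint values of 0.24 and 0.19 in the authors' deposited table, while the RNA values of RPL3A were above 0. These paralogs were picked after their values were seen, and none of them was called.

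RNA and footprint values often had opposite signs, in these genes as in all tested genes. In ceres-1, 11 of the 31 genes were above 0 in RNA and below 0 in footprints, 5 the reverse, 12 above 0 in both and 3 below 0 in both, in the authors' deposited table. In ceres-2 these counts were 11, 7, 9 and 4. Over the 12049 tested genes the same counts were 3098, 3144, 2912 and 2895 in ceres-1, and 2955, 2949, 2843 and 3302 in ceres-2. Opposite signs were thus common in the background too, and the counts are not a result about the 31 genes. Across the 31 genes Spearman's rho between RNA and footprint values was -0.19 (ceres-1) and -0.41 (ceres-2), and Pearson's r -0.21 and -0.53. Over the 12049 tested genes rho was -0.047 and 0.058, and over 174 of the other cytosolic genes -0.17 and -0.19. These are descriptions across genes, which share libraries, normalization and, among paralogs, sequence, and are not independent replicates.

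**Figure D4:**
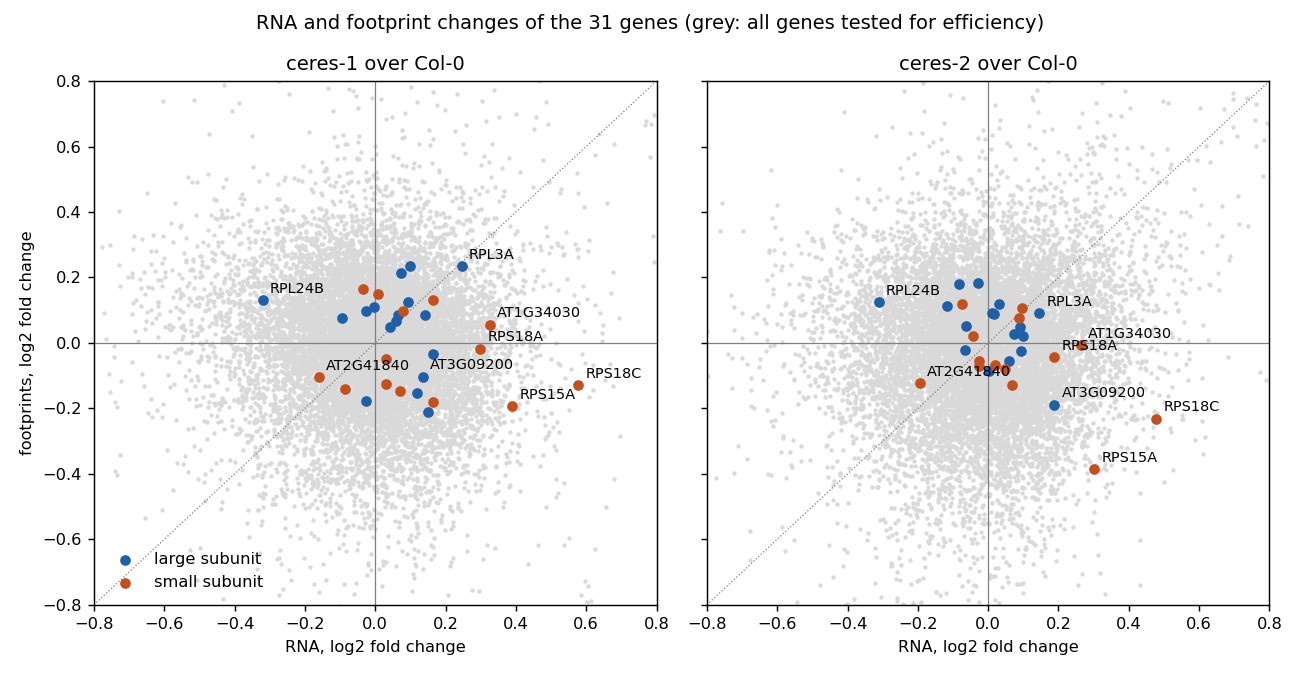
RNA (x axis) against footprint (y axis) log2 fold change over Col-0 for the 31 genes, blue for the large and orange for the small subunit, in ceres-1 (left) and ceres-2 (right), with tested genes in grey. The dotted line marks equal values, and 119 and 138 tested genes lie outside the axes. RPS18C and RPS15A lie to the lower right, at an RNA value of at least 0.30 and a footprint value below 0, and RPL24B lies to the upper left in both panels.

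Coding length, which ran from 249 nt in RPS21C to 1224 nt in RPL4 with a median of 663, was weakly related to these values. Across the 31 genes rho between coding length and the efficiency difference was 0.27 (ceres-1) and 0.28 (ceres-2), against 0.077 and -0.17 over the tested genes with a coding sequence. Over 174 of the other cytosolic genes it was -0.052 and -0.20, of opposite sign to that of the 31. RPS15A (393 nt) and the S18 genes (459 nt) are shorter than the median gene of the 31, as is RPL24B (492 nt), which lies at the other end of the range. The part of length in these values was not tested.

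Genes that act beside the ribosome were read from 3 lists. Among 15 genes of elongation factors and the ribosome-bound protein RACK1, TCTP (AT3G16640), a growth regulator listed with them, was called in ceres-2 footprints, where it fell by 0.36 on the log2 scale (adjusted p = 0.0182 in the authors' deposited table). Over all genes with an adjusted p in that comparison 1.88% were called, the highest share of the 6, so 1 call among 15 genes is not a result about the list. In ceres-1 its footprint value was -0.14 (adjusted p = 0.838 in that table), and no other gene of the list was called in any comparison. None of 12 ribosome assembly genes was called. Of these, NUC1, the nucleolin that acts in ribosomal RNA transcription, had RNA values of -0.28 and -0.29 and footprint values of 0.14 and 0.082 in the authors' deposited table. None of 5 genes of the TOR complex and S6 kinase was called. The shares of all genes called, from 0.0249% to 1.88%, make counts of 0 in lists of this size uninformative. S6K1, which phosphorylates S6, had footprint values of -0.69 with no adjusted p listed and -0.79 (adjusted p = 0.127 in the authors' deposited table). Its RNA values were below 0 as well, -0.24 (ceres-1) and -0.54 (ceres-2). Its efficiency differences were therefore closer to 0 than its footprint values, at -0.45 and -0.25 (efficiency adjusted p = 0.678 and 0.983 in that table). TOR itself had footprint values of 0.13 and -0.23 there.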

How the data were processed

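Ribosome footprints and RNA were sequenced (TruSeq Ribo Profile kit, per the labels' protocols), and libraries were grouped by genotype and kind from their labels. Reads were processed with TopHat2 2.1.0, featureCounts 1.6.2 and DESeq2, per the submitters' processing notes. Genome build, annotation release, strand setting, treatment of reads with several matches and the tool behind the efficiency columns were not given in the sources used here. In the 12 value columns the authors deposited log2 fold changes and adjusted p-values of RNA, footprints and efficiency for each allele, per the file headers. Depth is unknown. The deposited efficiency log2 column followed the footprint column. The median absolute distance was 0.0082 and 0.0080 in ceres-1 and ceres-2, against 0.098 and 0.073 to footprints minus RNA, over 30 genes. The efficiency difference was therefore computed as footprints minus RNA. The adjusted p-value given with it is the authors' efficiency adjusted p, and whether that tests this difference is unknown.

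The 31 genes and the lists were chosen with earlier results of these data known. Full values were due for genes called, among the 3 highest or lowest per quantity, or with a paralog among the 31, and for up to 4 genes per list with the smallest adjusted p. The paralogs outside the 31 were chosen after their values were seen, and the 180 other cytosolic genes by RefSeq notes alone. Of the 31, 24 have a symbol in the table or RefSeq and 7 are named by locus. Values were computed with Python 3.11.15, pandas 2.3.3, SciPy 1.17.1 and Biopython 1.88. The code was tested on simulated data.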

Additional observations from a re-analysis of the deposited data

How the results depend on the processing

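No gene was called at an adjusted p below 0.01 or with a minimum of 1.5-fold, and none of the other cytosolic genes was called; below 0.1, the count in efficiency in ceres-1 was 1. A median was taken as moved when it shifted by more than 0.05 on the log2 scale, since no spread between libraries is available. For the median over members, 41 of 44 alternatives stayed within that. Over all cytosolic ribosomal protein genes it was -0.0050 in footprints in ceres-1 (0.056 for the 31) and 0.012 in efficiency in ceres-2 (-0.041 for the 31). With the deposited efficiency column, which followed the footprint column, it was 0.051 in ceres-1 (-0.033 with the difference). For the large minus small subunit median, 25 of 38 alternatives stayed within 0.05. With means it was -0.079 in RNA and 0.084 in footprints in ceres-1, and 0.18 in efficiency in ceres-2. Without members that have a paralog among the 31 it was 0.22 and 0.17 in footprints in ceres-1 and ceres-2, and 0.27 and -0.00014 in efficiency. Over all cytosolic genes it was -0.056 in RNA, -0.0016 in footprints and 0.057 in efficiency in ceres-1, and 0.036 in footprints in ceres-2. Without the S18 genes and RPS15A, an alternative chosen after seeing the data, it was 0.018 in RNA in ceres-2 and 0.050 in efficiency in ceres-1. The sign of the median changed under 6 alternatives and that of the subunit contrast under 6. The cause was not tested.

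No paired analysis was possible because the deposited comparisons carry no value for a single library, and leaving out replicates was not run for that reason. Depth and the precision of each value are unknown.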

Other observations

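Among the cytosolic ribosomal protein genes outside the 31, 4 short genes of the L41 family had RNA values below 0 and efficiency differences above 0 in both alleles. AT3G11120 had RNA log2 fold changes of -0.40 in ceres-1 and -0.58 in ceres-2, and AT3G56020 of -0.17 and -0.53, in the authors' deposited table. AT3G08520 had -0.061 and -0.49, and AT2G40205 -0.15 and -0.42, in the same table. Their footprint minus RNA values were 0.32, 0.16, 0.30 and 0.13 in ceres-1 and 0.85, 0.73, 0.81 and 0.70 in ceres-2, in that order. None of the 4 was called in any comparison. Their lowest efficiency adjusted p in the authors' deposited table was 0.712, for AT3G11120 in ceres-2. Footprint values there were -0.076, -0.0069, 0.24 and -0.019 in ceres-1, in the same order. In ceres-2 they were 0.27, 0.20, 0.31 and 0.28. Each coding sequence is only 78 nt long. Windows shared with other coding sequences are not given for them, and the treatment of reads with several matches is unknown. The 4 may share reads, so they may not be separate observations. They were chosen after their values were seen.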
